A study of Homo sapiens with 33 samples.

Results

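Transcript levels of the ERBB receptor tyrosine kinases and their ligands were examined in 11 human high-grade serous ovarian carcinoma (HGSOC) cell lines. The group held 10 of the 29744 genes in the deposited tables and was taken by gene symbol: the 4 receptors EGFR, ERBB2, ERBB3 and ERBB4, and the 6 ligands AREG, EREG, HBEGF, TGFA, BTC and NRG1. The lines formed 4 families of shared origin, with 3 libraries of mRNA sequencing per line and 33 in all. OVCAR3 and OVCAR4 were the platinum-sensitive parents of OVCAR3 ResA, OVCAR3 ResB, OVCAR4 ResA and OVCAR4 ResB. Each Res line was selected separately by repeated short pulses of cisplatin at rising concentration and was then grown without the drug. PEA1 was the sensitive and PEA2 the resistant line of one patient, and PEO1 was the sensitive and PEO4 and PEO6 the resistant lines of another, with resistance that arose in the clinic. The sample labels name only the line and a replicate number, so the roles were taken from the study's text, and nothing in the labels says whether replicates were separate cultures. The p-values of pairs of lines therefore rest on the spread between libraries that is left after the replicate number is taken out as a block. They do not measure the spread between derivations, and each line is at most 1 derivation. The p-values of line-level tests rest on the spread between lines. According to the paper, PEO4 and PEO6 are thought to stem from a shared clone.

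The ERBB receptors sit in the cell membrane and signal as pairs. EGFR binds AREG, EREG, HBEGF, TGFA and BTC, ERBB3 and ERBB4 bind the neuregulins such as NRG1, and ERBB4 also binds HBEGF, EREG and BTC. ERBB2 has no known ligand and acts as the preferred partner of the others, while ERBB3 has little kinase activity of its own and passes signals on through the PI3-kinase pathway. The ligands are made as membrane-bound precursors that are released by proteases such as ADAM17 and ADAM10, and activated receptors drive the RAS-ERK and PI3-kinase pathways.

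Total estimated counts ranged from 18058985 to 43394009 per library. Levels are given as TPM, a measure of transcript abundance scaled for transcript length, and fold changes come from normalised counts. The 2 mitochondrial rRNA genes took a part of each library that ran from 1.12% to 14.8% and differed within lines: this share was 5.18%, 14.8% and 12.0% in OVCAR4, but 9.23%, 2.02% and 2.09% in OVCAR4 ResA and 13.1%, 2.47% and 2.39% in OVCAR4 ResB. In both OVCAR4 Res lines 2 of the 3 libraries thus had a lower share than any parental library. The median gene was higher in the resistant lines on the log2(TPM + 1) scale, by 0.44 and 0.47 in the OVCAR4 pairs and by 0.14 and 0.11 in the OVCAR3 pairs, so TPM levels in them are not directly comparable with the fold changes. Of the 9 epithelial and ovarian carcinoma markers checked, 8 or 9 had a mean of at least 1 TPM in each of the 10 lines other than PEA1, with a summed level of at least 2339 TPM. In PEA1 7 of the 9 did, and they summed to 405 to 448 TPM. PAX8, a marker of the Müllerian lineage, was at 74.9 ± 12.7 TPM (SD, n = 3) in PEA1 against 61.7 ± 8.68 in PEA2, whereas EPCAM, an epithelial adhesion gene, was at 14 ± 1.21 TPM against 575 ± 36.5 in PEA2, and VIM, a mesenchymal filament gene, was at 4120 ± 676 TPM against 219.6 ± 13.7. The 6 mesenchymal markers together summed to 3931 to 5067 TPM in PEA1 and 3749 to 5711 TPM in PEA2. The T cell marker CD3E was at 0 in both PEA lines, while PTPRC, the pan-leukocyte marker CD45, was at 0 in PEA1 and at 3.30 ± 0.245 TPM in PEA2, where the 4 leukocyte markers summed to 5.27 to 7.22 TPM against 0.469 to 0.551 TPM in PEA1.

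The sequences just upstream of 3 genes with wide changes are shown, since AREG and EREG lie beside each other and ERBB4 was the receptor that changed most. They are the 250 bases before the annotated start in RefSeq (GRCh38.p14), 5′ to 3′ on the strand of the gene; 8 of the 10 members had an entry. Capitals mark matches on either strand to the letters TGACGTCA of the cAMP response element (CRE). They also mark the motif of the AP-1 factors, TGANTCA, in which N is any base. The last motif marked is the box known to place the start of transcription, TATAAA, called TATA below.
AREG: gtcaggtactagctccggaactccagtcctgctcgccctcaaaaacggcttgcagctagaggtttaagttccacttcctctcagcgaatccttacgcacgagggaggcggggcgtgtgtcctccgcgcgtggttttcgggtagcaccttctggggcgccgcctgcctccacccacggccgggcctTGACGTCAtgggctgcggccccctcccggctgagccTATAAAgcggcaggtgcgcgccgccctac
EREG: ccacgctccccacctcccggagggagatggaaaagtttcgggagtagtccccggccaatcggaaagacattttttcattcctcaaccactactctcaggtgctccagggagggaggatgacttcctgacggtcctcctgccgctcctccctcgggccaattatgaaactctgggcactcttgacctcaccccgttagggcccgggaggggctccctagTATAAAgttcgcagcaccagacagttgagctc
ERBB4: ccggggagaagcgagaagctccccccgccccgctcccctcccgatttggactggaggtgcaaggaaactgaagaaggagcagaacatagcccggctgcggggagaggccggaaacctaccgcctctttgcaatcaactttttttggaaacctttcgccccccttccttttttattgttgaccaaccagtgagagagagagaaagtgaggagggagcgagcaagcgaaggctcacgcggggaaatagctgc
AREG lies at chr4:74445136-74455005 on the plus strand, and its window, chr4:74444886-74445135, held 1 CRE match whose first base is 65 bases before the start and 1 TATA match 29 bases before it. EREG lies at chr4:74365145-74388749 on the plus strand, and its window, chr4:74364895-74365144, held 1 TATA match 32 bases before the start and no CRE or AP-1 match. ERBB4 lies at chr2:211375717-212538802 on the minus strand, and its window, chr2:212538803-212539052, held none of the 3 motifs. Of all 35116 promoters in the table, 1.65% held the CRE letters, 6.57% the AP-1 letters and 10.7% the TATA letters in the same 250-base window. The windows of HBEGF and BTC and both windows of TGFA held no match to these 3 motifs either, nor did the first of the 2 EGFR windows. The second EGFR window held 2 AP-1 and 2 TATA matches, and the ERBB2 window held 1 AP-1 match. A match of letters is not a measured binding site.

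All 10 members were detected, but they differed in how widely. EGFR, ERBB2, AREG, HBEGF, TGFA, BTC and NRG1 had a line mean of at least 1 TPM in all 11 lines, ERBB3 in 10, ERBB4 in 6 and EREG in 3. When lines were ordered by mean, neighbouring lines often overlapped: for EGFR the library values of every line overlapped those of the next, whereas for ERBB4 6 of the 10 steps in the order had no overlap.

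**Figure D1:**
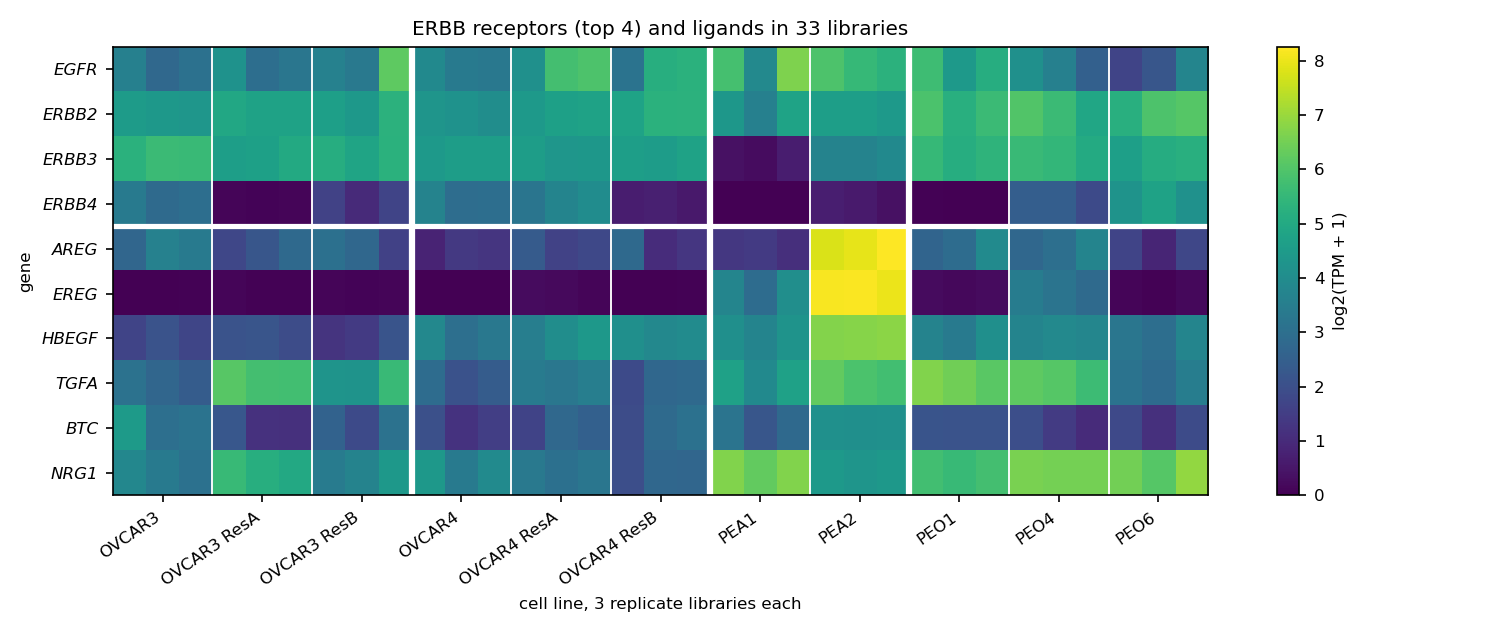
Heat map of log2(TPM + 1) for the 4 receptors (top rows) and 6 ligands in each of the 33 libraries, with lines in columns of 3 libraries and wide white bars between families. EREG is near 0 outside PEA1, PEA2 and PEO4, ERBB3 is low only in PEA1, and AREG and EREG are brightest in PEA2, at 257 and 281 TPM on average.

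Resistant and sensitive lines were compared within each family to ask which members go with resistance within a shared background, using DESeq2 with the replicate number as a block and Benjamini-Hochberg adjustment over all genes. Fold changes are written below as log2 of resistant over sensitive ± SE. A lower transcript level here can be fewer cells with the transcript or less of it per cell, which bulk RNA cannot tell apart. In OVCAR3 ResA 7 of the 10 members were called, 3 higher and 4 lower, where 44.9% of all tested genes were called, 22% higher and 22.9% lower. In OVCAR3 ResB 2 were called, 1 in each direction, against 7.67% of all genes, 4.1% higher and 3.57% lower. In OVCAR4 ResA 2 were called, 1 in each direction, against 11.9% of all genes, 6.68% higher and 5.22% lower. In OVCAR4 ResB 2 were called, both lower, against 17.9% of all genes, 9.09% higher and 8.77% lower. In PEA2 8 were called, 7 higher and 1 lower, against 47% of all genes, 23.3% higher and 23.8% lower. In PEO4 5 were called, 3 higher and 2 lower, against 33.3% of all genes, 16.6% higher and 16.7% lower. In PEO6 5 were called, 2 higher and 3 lower, against 41.4% of all genes, 21.2% higher and 20.3% lower. Pairs of 1 family share their control libraries. Over the 7 pairs, 31 of 70 member values were called, 17 higher and 14 lower, 36 were not called and 3 had no adjusted p. No member was called in the same direction in more than 3 pairs, and 7 of the 10 were called higher in some pairs and lower in others.

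**Figure D2:**
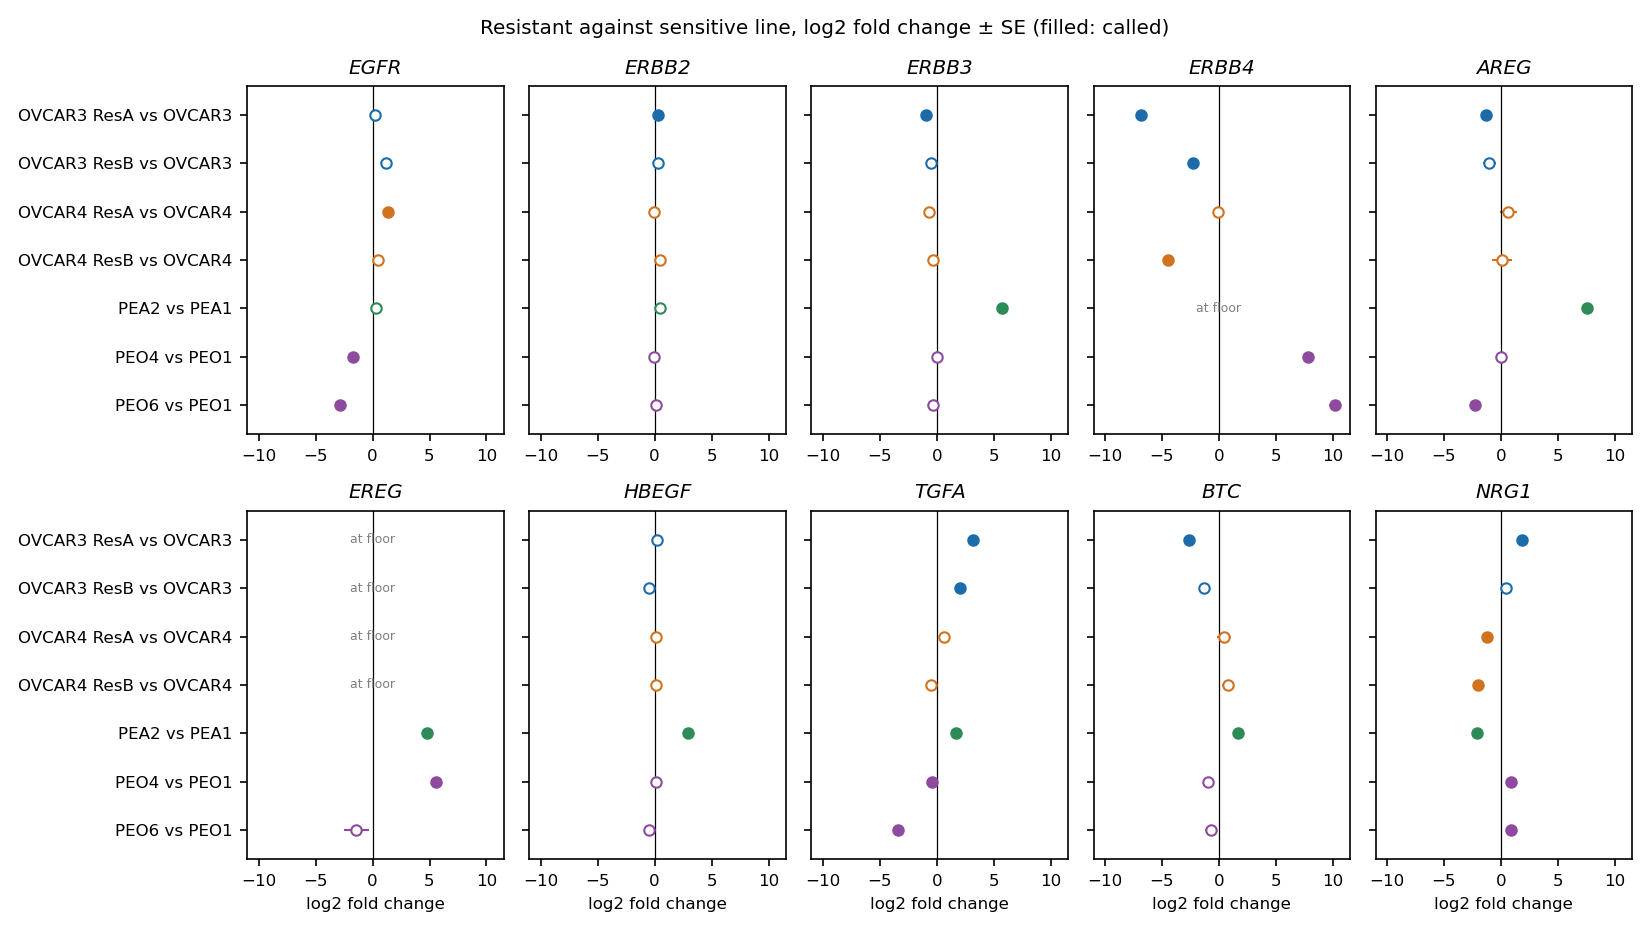
Log2 fold change of each member in the 7 resistant against sensitive pairs, with bars for the standard error and filled points for adjusted p under 0.05; pairs in which one line had 3 counts or fewer in every library are marked as at floor and have no point. ERBB4 points lie left of 0 in OVCAR3 ResA, OVCAR3 ResB and OVCAR4 ResB, from -6.84 to -2.27, and far right of it in PEO4 and PEO6, at 7.86 and 10.19.

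ERBB4, the neuregulin receptor with a full kinase, had the widest range of the receptors and changed in 6 of 7 pairs, lower in 3 and higher in 3. In OVCAR3 its level was 9.45, 6.30 and 6.89 TPM in the 3 libraries, in OVCAR3 ResA 0.0935, 0.0587 and 0.0695 TPM, and in OVCAR3 ResB 2.09, 0.996 and 2.21 TPM. All 3 libraries of each Res line were below all 3 of the parent. The fold change was log2 -6.84 ± 0.25 (adjusted p = 2.94e-160) in ResA, a 114-fold decrease, and log2 -2.27 ± 0.33 (adjusted p = 5.58e-10) in ResB, a 4.83-fold decrease. In the OVCAR4 family the parent had 11.9, 6.82 and 6.95 TPM, ResA 8.32, 12.3 and 15.01 TPM and ResB 0.583, 0.637 and 0.484 TPM. ResB lay below every parental library, with log2 -4.44 ± 0.32 (adjusted p = 1.12e-40), a 21.7-fold decrease. ResA overlapped its parent, with log2 -0.04 ± 0.33 (adjusted p = 0.955).

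In the patient-derived families ERBB4 went the other way. PEA1 had 0, 0 and 0.0120 TPM, from 0 to 2 counts per library, and PEA2 0.603, 0.504 and 0.281 TPM, so that the increase was at least 34.9-fold over a floor of 3 counts per library (adjusted p = 1.02e-08); PEA2 stayed below 1 TPM. PEO1 had 0.0400, 0.0117 and 0.00496 TPM, from 1 to 7 counts, against 4.52, 4.57 and 2.62 TPM in PEO4 and 17.7, 25.8 and 17.2 TPM in PEO6. Both resistant PEO lines were above PEO1 in every library, with log2 7.86 ± 0.52 (adjusted p = 2.16e-50) in PEO4 and log2 10.19 ± 0.55 (adjusted p = 7.35e-75) in PEO6, and the low counts of PEO1 make the exact folds uncertain. All 3 clinically resistant lines were thus called higher and 3 of the 4 cisplatin-selected lines lower. The difference itself was tested on counts summed per line, in a fit added after these values had been seen: the resistant minus sensitive change was -2.29 ± 1.67 (SE) on the log2 scale in the OVCAR families and 8.68 ± 1.05 in the PEA and PEO families, a difference of 10.86 ± 1.90 (adjusted p = 1.02e-05, DESeq2, 11 lines). ERBB4 was the 1 member called by this test, which called 2.14% of all genes. The test counted PEO4 and PEO6 as separate lines, though both were set against PEO1 and are thought to stem from a shared clone. Origin of resistance, patient and family cannot be told apart in this design.

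**Figure D3:**
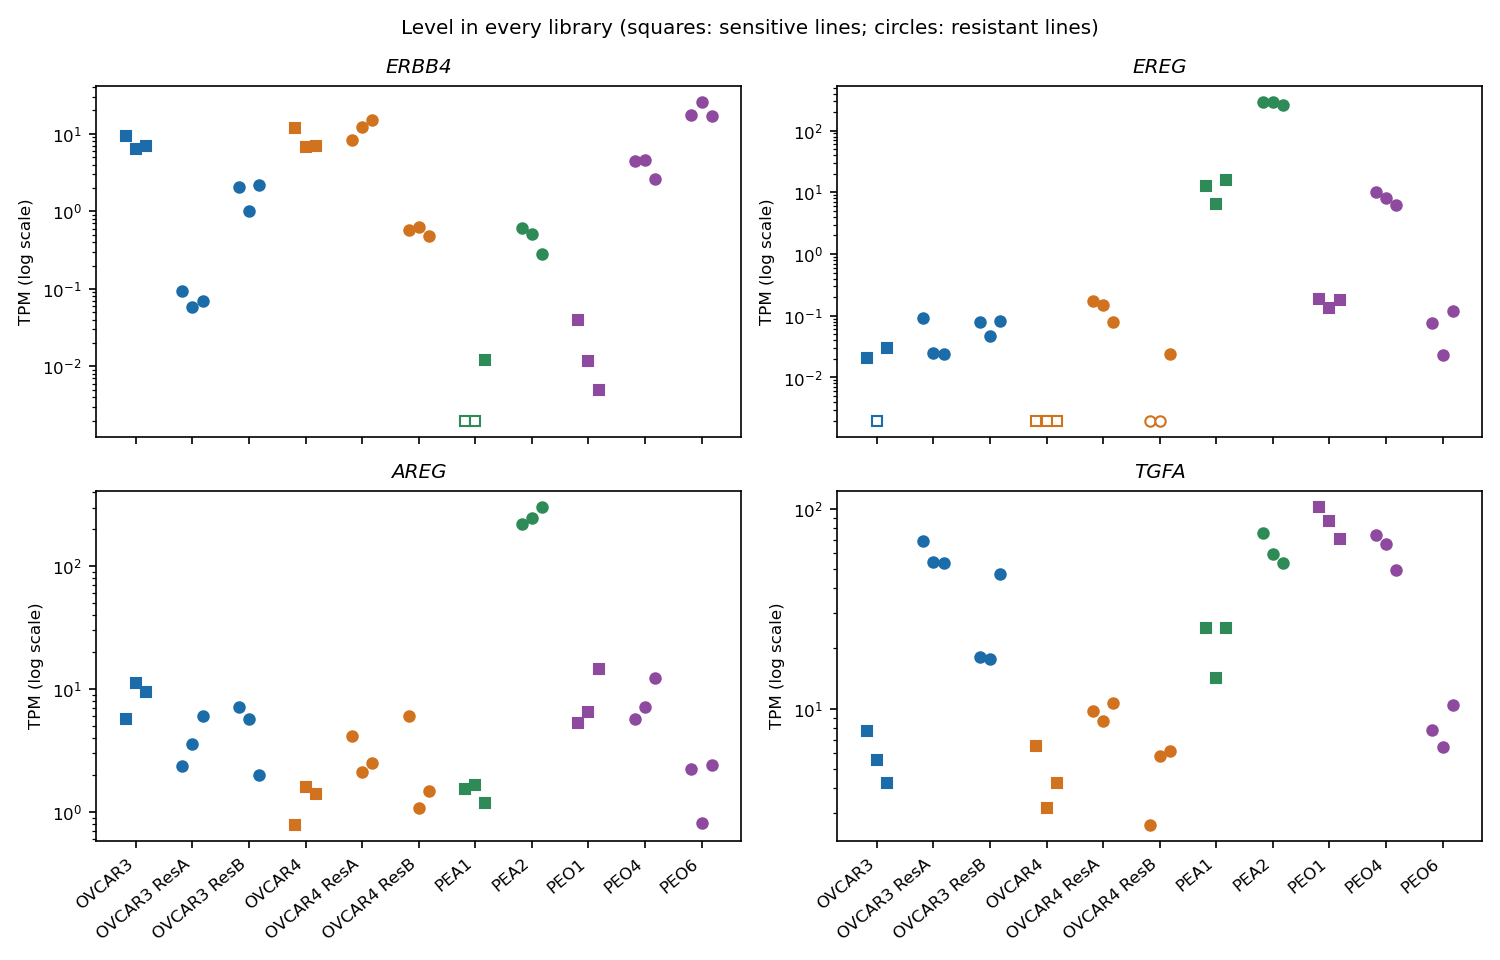
TPM of ERBB4, EREG, AREG and TGFA in every library on log axes, with squares for sensitive and circles for resistant lines and colours for families; open symbols are values of 0 drawn at 0.002. ERBB4 runs from 0 in PEA1 to 25.8 TPM in PEO6, and EREG from 0 in OVCAR4 to 292 TPM in PEA2.

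EGFR, the receptor shared by most of the ligands, varied strongly between replicates of a line. In PEO1 it was at 50.1, 20.6 and 34.5 TPM, in PEO4 at 16.8, 11.01 and 4.79 TPM and in PEO6 at 2.22, 3.65 and 12.5 TPM. Every library of PEO4 and PEO6 was below every library of PEO1, with log2 -1.74 ± 0.25 (adjusted p = 3.89e-11) in PEO4 and log2 -2.84 ± 0.37 (adjusted p = 4e-13) in PEO6. In OVCAR4 the level was 14.1, 9.65 and 8.78 TPM, and in OVCAR4 ResA 16.5, 53.7 and 60.8 TPM. These libraries did not overlap and the change was called, at log2 1.31 ± 0.43 (adjusted p = 0.0239), but it was not called without replicate 2 or without replicate 3 (highest adjusted p = 0.854), with edgeR (adjusted p = 0.177), or with the mitochondrial rRNA share as a covariate (adjusted p = 0.216). OVCAR4 ResB had 7.80, 35.02 and 37.3 TPM and was not called, at log2 0.51 ± 0.46 (adjusted p = 0.502). OVCAR3 ResB had 11.4, 9.05 and 72.8 TPM, where 1 library stood far above the others and above all of OVCAR3, at 10.96, 5.92 and 7.46 TPM, and the difference was not called, at log2 1.18 ± 0.45 (adjusted p = 0.0993). PEA1 held the widest spread, 55.6, 13.6 and 101 TPM, around PEA2 at 60.4, 44.8 and 38.3 TPM, with log2 0.27 ± 0.37 (adjusted p = 0.591); with the mitochondrial share as a covariate EGFR was called lower in PEA2, by a log2 fold change of -1.34 (adjusted p = 4.88e-05).

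The library with the lowest mitochondrial rRNA share was the one with the most EGFR in 9 of the 11 lines. After subtracting line means, log2(TPM + 1) of EGFR and the log2 share had a Pearson r of -0.85 over the 33 libraries, which share lines and whose TPM are fractions of one total. Of the 13185 genes with a line mean of at least 5 TPM, 2768 had an r as low or lower, and their median was -0.57, so EGFR was not apart from other genes in this. BTC had r = -0.86, TGFA -0.83, NRG1 -0.71 and ERBB2 -0.67. AREG went the other way, with r = 0.81, a value reached or passed by 393 of those genes. With the share as a covariate in place of the replicate block, EGFR was called lower in PEO4 and PEO6 as well, but by less, at log2 -0.88 (adjusted p = 0.00838) against -1.74 with the block and at log2 -1.69 (adjusted p = 0.0188) against -2.84. In OVCAR3 ResB EGFR was called higher in that fit, at log2 1.04 (adjusted p = 0.00236), and in OVCAR4 ResB it was not called (adjusted p = 0.542).

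**Figure D4:**
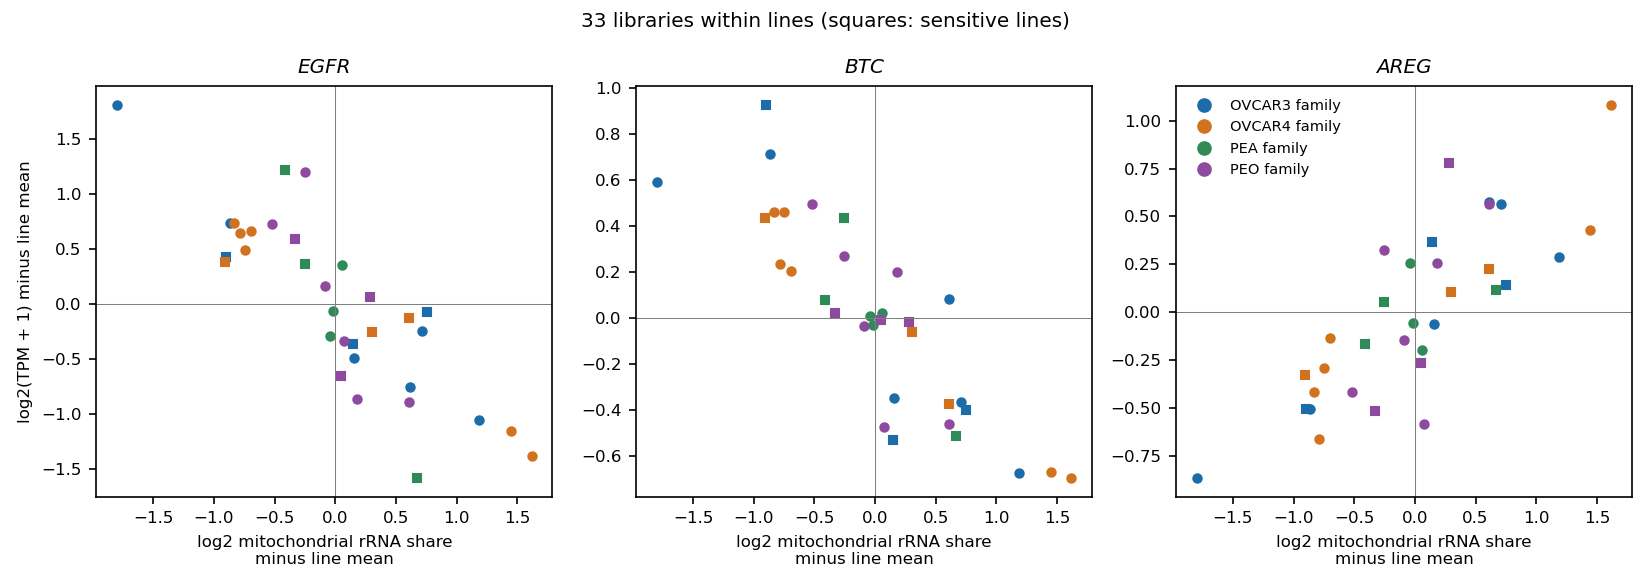
Deviation of EGFR, BTC and AREG from the line mean (log2(TPM + 1), vertical) against the deviation of the log2 mitochondrial rRNA share (horizontal) in 33 libraries, coloured by family. EGFR and BTC fall with the share, with r of -0.85 and -0.86, and AREG rises with it, with r of 0.81.

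ERBB3, the receptor with little kinase activity, was at 0.369 ± 0.203 TPM in PEA1 and between 12.7 and 44.6 TPM on average in the other 10 lines. The PEA1 libraries were at 0.290, 0.218 and 0.599 TPM and those of PEA2 at 12.1, 11.96 and 14 TPM. They did not overlap, and the increase was 52.5-fold, log2 5.71 ± 0.31 (adjusted p = 2.22e-72). CDH1, the epithelial cadherin, moved beside it, from 1.26 ± 0.986 TPM in PEA1 to 204 ± 26.1 in PEA2, and 7 of the 9 epithelial and ovarian carcinoma markers were called higher in this pair while 4 of 6 mesenchymal markers were called lower. Of all genes in this pair, 23.3% were called higher and 23.8% lower. The epithelial list summed to 4245 to 4528 TPM in PEA2, and the mesenchymal list to 3749 to 5711 TPM in PEA2 and 3931 to 5067 TPM in PEA1, in PEA2 mostly FN1; their part in the ERBB changes was not tested. In OVCAR3 ResA ERBB3 was lower, at 23.97, 24.7 and 31.3 TPM against 37.95, 48.1 and 47.8 TPM in OVCAR3, with log2 -0.95 ± 0.12 (adjusted p = 2.54e-14). The other 5 pairs were not called, with log2 fold changes from -0.67 to 0.03. Of these, OVCAR3 ResB was called lower with the mitochondrial covariate, at -0.52 (adjusted p = 0.0336).

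ERBB2, the partner receptor without a ligand, was present in every line. Its line means lay between 17.3 TPM in OVCAR4 and 54.6 TPM in PEO6. It was called in 1 pair, OVCAR3 ResA, where the libraries were at 29.8, 26.2 and 26.2 TPM against 21.98, 19.99 and 19.4 TPM. They did not overlap, but the change was small, log2 0.29 ± 0.11 (adjusted p = 0.0241), and was not called without the replicate block (adjusted p = 0.102) or with any 1 replicate left out (highest adjusted p = 0.259). Same-numbered libraries of this pair deviated together. In the other 6 pairs the log2 fold change of ERBB2 was between -0.04 and 0.47; in PEO4, at -0.03, it was called higher with the mitochondrial covariate, at 0.49 (adjusted p = 0.0393), and so was OVCAR4 ResB, at 0.45 (adjusted p = 0.0203).

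AREG and EREG, ligands of EGFR whose genes are neighbours on chromosome 4, were far higher in PEA2 than in any other line. AREG was at 222, 245 and 305 TPM in PEA2 and 1.52, 1.64 and 1.17 TPM in PEA1, with no overlap and log2 7.56 ± 0.31 (adjusted p = 2.36e-125), a 188-fold increase. The highest AREG value outside PEA2 was 14.5 TPM, in PEO1. EREG was at 290, 292 and 259.6 TPM in PEA2 and 12.5, 6.53 and 15.97 TPM in PEA1, again without overlap, with log2 4.80 ± 0.25 (adjusted p = 1.58e-78), a 27.9-fold increase. The AREG window printed above holds the CRE letters and that of EREG does not. HBEGF, which binds EGFR and ERBB4, followed among the ligands, at 105, 107 and 112 TPM in PEA2 against 16.3, 12.3 and 17.9 TPM in PEA1, log2 2.94 ± 0.22 (adjusted p = 2.32e-38). Smaller increases were called for TGFA, log2 1.69 ± 0.23 (adjusted p = 9.35e-13), and for BTC, log2 1.70 ± 0.32 (adjusted p = 6.61e-07).

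In the PEO family the neighbours AREG and EREG changed apart. EREG was at 0.188, 0.133 and 0.182 TPM in PEO1, 9.95, 8.06 and 6.17 TPM in PEO4 and 0.0758, 0.0235 and 0.118 TPM in PEO6. PEO4 was above both other lines in every library, with log2 5.61 ± 0.33 (adjusted p = 6.09e-64), a 48.9-fold increase, and PEO6 was not called against PEO1, log2 -1.42 ± 1.07 (adjusted p = 0.295), on 2 to 10 counts per library. AREG was at 5.31, 6.52 and 14.5 TPM in PEO1, 5.70, 7.10 and 12.3 TPM in PEO4 and 2.25, 0.815 and 2.41 TPM in PEO6. PEO4 overlapped PEO1, with log2 0.03 ± 0.28 (adjusted p = 0.964), and was called lower with the mitochondrial covariate, at -1.05 (adjusted p = 0.0124). PEO6 was below PEO1 in every library, with log2 -2.28 ± 0.47 (adjusted p = 7.02e-06). In OVCAR3 ResA AREG was lower, at 2.37, 3.58 and 6.07 TPM against 5.67, 11.2 and 9.47 TPM. The TPM values overlapped in 1 library of each line, and the fold change was log2 -1.32 ± 0.29 (adjusted p = 3.14e-05), a call lost when all 33 libraries were fitted together. With the mitochondrial covariate AREG was called lower in OVCAR3 ResB, at -0.92 (adjusted p = 0.0244). In that fit it was called higher in OVCAR4 ResA, at 1.67 (adjusted p = 0.0172), and in OVCAR4 ResB, at 1.56 (adjusted p = 0.00464). None of these changes was called with the replicate block. In the 6 OVCAR lines EREG had no more than 13 counts in any library, and no resistant against sensitive change was called in them; ResB was called lower than ResA in the OVCAR4 family (adjusted p = 0.0456), a call lost without the replicate block (adjusted p = 0.0513).

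TGFA, a ligand of EGFR, rose in both OVCAR3 Res lines and fell in both resistant PEO lines. It was at 7.70, 5.55 and 4.24 TPM in OVCAR3, 68.5, 54.3 and 53.3 TPM in ResA and 18.1, 17.7 and 46.9 TPM in ResB. Neither Res line overlapped the parent, with log2 3.22 ± 0.13 (adjusted p = 8.51e-133) in ResA, a 9.29-fold increase, and log2 2.01 ± 0.39 (adjusted p = 1.01e-05) in ResB, a call lost with limma on log2(TPM + 0.1) and on log2(TPM + 1) without a filter. Those fits of ResB called only 397 of 13520 and 2 of 21860 genes, so the losses say little about TGFA itself. In PEO1 the level was 102, 86.8 and 70.4 TPM, in PEO4 73.7, 66.7 and 49.2 TPM and in PEO6 7.82, 6.46 and 10.4 TPM. PEO6 was far below PEO1, log2 -3.42 ± 0.25 (adjusted p = 2.03e-39), a 10.7-fold decrease. PEO4 overlapped PEO1, and its decrease, log2 -0.42 ± 0.16 (adjusted p = 0.0331), was kept in 4 of 12 alternatives. It was lost without the replicate block (adjusted p = 0.086), without replicate 1 or replicate 2 (highest adjusted p = 0.361), with limma, and with the mitochondrial covariate, where it was log2 -0.16 (adjusted p = 0.622). In OVCAR4 ResB TGFA was not called, at log2 -0.53 (adjusted p = 0.406). With the mitochondrial covariate it was called lower there, at -0.91 (adjusted p = 6.8e-05).

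NRG1, the neuregulin that binds ERBB3 and ERBB4, was called in 6 pairs, 3 in each direction. It was at 53, 46.3 and 54.3 TPM in PEO1, 95.5, 90.9 and 91.1 TPM in PEO4 and 90.2, 66.9 and 119.9 TPM in PEO6. The resistant libraries were all above PEO1, with log2 0.90 ± 0.17 (adjusted p = 7.96e-07) and log2 0.87 ± 0.24 (adjusted p = 0.00113); the latter was not called without replicate 3 (adjusted p = 0.0675). OVCAR3 ResA was also higher, at 46.5, 35.2 and 30.8 TPM against 13.2, 9.68 and 7.51 TPM, with no overlap and log2 1.80 ± 0.15 (adjusted p = 1.5e-33). PEA2 was lower than PEA1, at 21.2, 18.7 and 20.3 TPM against 103, 76.5 and 102 TPM, log2 -2.11 ± 0.22 (adjusted p = 4.53e-20), so NRG1 was the 1 ligand of the 6 that fell in PEA2. In the OVCAR4 family the parent had 19.9, 9.64 and 14.6 TPM, ResA 9.21, 7.22 and 8.41 TPM and ResB 2.94, 5.76 and 5.64 TPM. Both Res lines were below the parent, with log2 -2.0 ± 0.40 (adjusted p = 1.63e-05) in ResB, a call lost with limma on TPM, and with log2 -1.19 ± 0.34 (adjusted p = 0.00734) in ResA, a call lost with edgeR (adjusted p = 0.0679) and without replicate 2 or replicate 3 (highest adjusted p = 0.648). The limma fits of ResB on log2(TPM + 1), log2(TPM + 0.1) and log2(TPM + 1) without a filter called 619, 607 and 0 of all genes, against 2853 with DESeq2.

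BTC, which binds EGFR and ERBB4, fell in OVCAR3 ResA, to 3.71, 1.26 and 1.24 TPM from 21.4, 7.15 and 7.92 TPM in OVCAR3. The groups did not overlap, with log2 -2.67 ± 0.28 (adjusted p = 2.22e-20), while 1 OVCAR3 library, at 21.4 TPM, stood above the other two. OVCAR3 ResB missed the threshold, log2 -1.29 ± 0.45 (adjusted p = 0.0545), and was called lower with the mitochondrial covariate, at -1.41 (adjusted p = 0.00116). HBEGF was called in no pair outside PEA2, with log2 fold changes from -0.49 to 0.18.

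The make-up of the receptor and ligand transcripts is given as mean shares of their summed TPM in each line (± SD, n = 3). Summed receptor levels lay between 59.2 ± 5.92 TPM in OVCAR4 and 123 ± 32.4 TPM in PEO1. EGFR held 68.9 ± 12.7% of the receptor TPM in PEA1 and 56.5 ± 5.25% in PEA2, but 5.04 ± 3.79% in PEO6 and 10.1 ± 3.23% in OVCAR3, where ERBB3 held 55.2 ± 6.97%. ERBB4 held 18.6 ± 5.0% in PEO6 and 14.2 ± 3.36% in OVCAR4. Summed ligand levels were 745 ± 19 TPM in PEA2 and between 32.5 and 187 TPM in the other 10 lines. In PEA2 AREG and EREG held 34.4 ± 4.81% and 37.7 ± 3.33% of it, in PEO6 NRG1 held 81.1 ± 0.168%, in PEO1 TGFA held 53.1 ± 7.64%, and in OVCAR4 ResB HBEGF held 45.3 ± 6.69%.

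**Figure D5:**
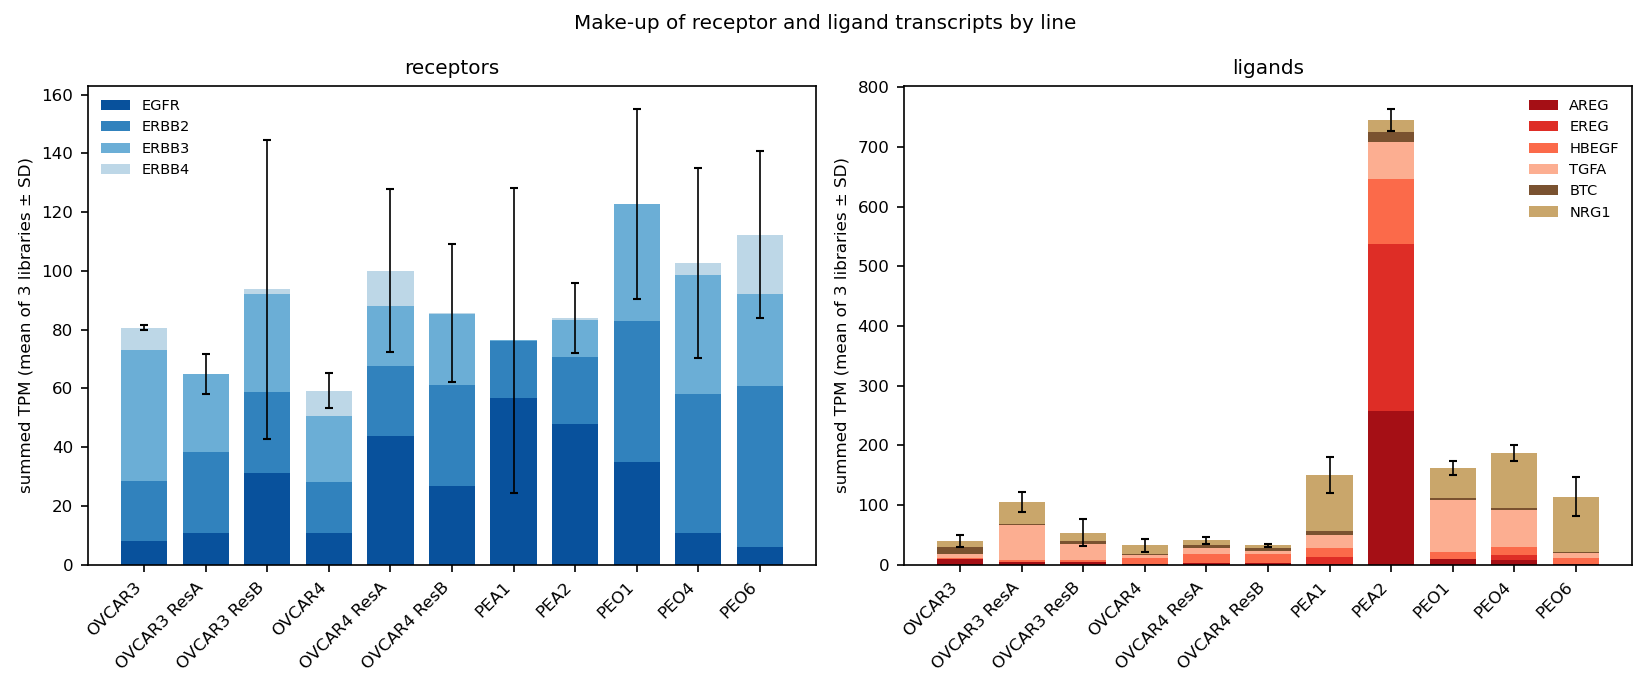
Stacked bars of mean TPM of the 4 receptors (left) and the 6 ligands (right) in each line, with error bars for the SD of the sum over 3 libraries. The receptor sums lie between 59.3 and 123 TPM, and the ligand sum of PEA2, 745 TPM, is far above those of the other lines.

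When counts were summed over the replicates of each line and family was a covariate, 0 of the 10 members were called between the 7 resistant and 4 sensitive lines with DESeq2, where 0.286% of all genes were called. At an unadjusted p under 0.05 the test found 1 member, EREG, with a log2 fold change of 3.95 ± 1.12 (SE, adjusted p = 0.107, DESeq2). The quasi-likelihood test of edgeR also called 0 members and had the same 1 at the unadjusted threshold. EREG was called higher in PEA2 and PEO4 only. The share of all genes at the unadjusted threshold is not given here, so the 1 member is not read as a result. In the OVCAR lines EREG had no more than 13 counts in any library, so its fold change rests there on very few counts.

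The resistant lines of each family were also compared with each other. OVCAR3 ResB differed from OVCAR3 ResA in 3 members, 1 higher and 2 lower, where 13.5% of all genes were called, 7.47% higher and 6.04% lower. ERBB4 was higher in ResB, log2 4.57 ± 0.46 (adjusted p = 4.9e-21), and TGFA and NRG1 were lower, by calls that were lost without replicate 1 or replicate 2 (highest adjusted p = 0.306 and 0.302). OVCAR4 ResB differed from OVCAR4 ResA in 7 members, 2 higher and 5 lower, against 32.8% of all genes, 16.2% higher and 16.5% lower. All 4 receptors were among them: ERBB4 was lower by a log2 fold change of -4.39 ± 0.23 (adjusted p = 6.99e-77) and EGFR by a log2 fold change of -0.80 ± 0.10 (adjusted p = 2.39e-14), while ERBB2 was higher by a log2 fold change of 0.48 ± 0.10 (adjusted p = 7.78e-06) and ERBB3 by a log2 fold change of 0.32 ± 0.11 (adjusted p = 0.0188). Same-numbered libraries of these lines deviated together, and without the replicate block 3 members were called; the calls of EGFR (adjusted p = 0.53), ERBB3, EREG and NRG1 were lost. The ERBB2 call was lost without replicate 2 (adjusted p = 0.0948) and with all 33 libraries in one fit. PEO6 differed from PEO4 in 4 members, 1 higher and 3 lower, against 18.2% of all genes, 9.86% higher and 8.33% lower. ERBB4 was higher in PEO6, log2 2.32 ± 0.28 (adjusted p = 3.35e-14), and EREG was 119-fold lower, log2 -6.90 ± 0.52 (adjusted p = 2.58e-37), followed by TGFA, log2 -3.00 ± 0.30 (adjusted p = 2.9e-21), and AREG, log2 -2.31 ± 0.50 (adjusted p = 8.57e-05); the AREG call was lost without replicate 2 (adjusted p = 0.105).

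The chromosomal neighbours of the members were read beside them. The cluster on chromosome 4 also holds EPGN, a further EGFR ligand, which was at 8.89 ± 2.22 TPM in PEA2 against 0.0536 ± 0.0295 in PEA1, log2 7.28 ± 0.68 (adjusted p = 2.17e-25), so that EPGN, EREG, AREG and BTC all rose in this pair. Of the 3 nearest protein-coding genes on either side of the cluster, 3 of 6 were called higher in PEA2, CXCL3 by 3.15, CXCL2 by 1.91 and PARM1 by 2.99 on the log2 scale, and MTHFD2L, RCHY1 and THAP6 were not called. The share of all genes called higher in PEA2 was 23.3%. In PEO4, where EREG rose, 4 of the same 6 neighbours were called lower and none higher, and EPGN was at least 5.53-fold lower (adjusted p = 0.00337). The share of all genes called lower in PEO4 was 16.7%. PEO6 against PEO4, where EREG and AREG were lower, had 0 of 6 neighbours called, against 18.2% of all genes. In PEO6 against PEO1 the 4 neighbours of ERBB4 with a fitted value were all called higher, with log2 fold changes from 0.86 to 1.79 against 10.19 for ERBB4. Of all genes in that pair, 21.2% were called higher. In OVCAR3 ResA, where ERBB4 fell, 2 of its 5 fitted neighbours were called higher, LANCL1 by 1.13 and CPS1 by 1.84, and none lower. Of all genes in OVCAR3 ResA, 22% were called higher. In PEO4, where ERBB4 also rose, 1 of its 5 fitted neighbours was called higher and 0 lower, against 16.6% and 16.7% of all genes. For PEA2, where ERBB4 rose too, 2 of the 5 were called higher and 2 lower, against 23.3% and 23.8%. For OVCAR3 ResB and OVCAR4 ResB, where ERBB4 fell, 0 of 4 and 0 of 5 were called, against 7.67% and 17.9% of all genes. In PEA2, where ERBB3 rose, 2 of its 6 neighbours were called lower and none higher, against 23.8% of all genes lower. In OVCAR3 ResA, where ERBB3 fell, 5 of its 6 neighbours were called lower and none higher, against 22.9% of all genes lower. The log2 fold changes of these 6 ran from -1.13 to 0.37, against -0.955 for ERBB3.

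The other genes of the pathway were called in both directions. Over the 7 pairs together 29.8% of all values tested were called, beside 44.3% of the 70 values of the members, of which 3 had no adjusted p. Of the 5 further ligands, 11 of 35 values (31.4%) were called, 4 higher and 7 lower, and 9 had no adjusted p. EGF itself, at most 1.15 TPM on average, was called in no pair. NRG4, a neuregulin of ERBB4, was higher in OVCAR3 ResA, log2 1.70 ± 0.28 (adjusted p = 1.29e-08), where NRG2 was lower, log2 -2.27 ± 0.29 (adjusted p = 3.26e-14), and EPGN fell there too, log2 -3.59 ± 0.30 (adjusted p = 5.43e-31). Of the genes of shedding and trafficking 7 of 35 values (20%) were called, 4 higher and 3 lower, a share below that of all genes. ADAM17, which releases AREG, HBEGF and TGFA, was higher in PEA2, log2 1.34 ± 0.28 (adjusted p = 8.93e-06), where RHBDF1, which helps ADAM17 mature, was lower, log2 -1.98 ± 0.27 (adjusted p = 1.73e-12).

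Among adaptors and effectors 36 of 105 values (34.3%) were called, 22 higher and 14 lower. In OVCAR3 ResA 10 of the 15 were called higher and 1 lower, against 22% and 22.9% of all genes. Their median log2 fold change was 0.48 against -0.01 for all genes. In PEO6 1 was higher and 7 lower, against 21.2% and 20.3% of all genes, with a median of -0.48 against 0.02. PIK3R1, the regulatory subunit of PI3-kinase, rose in PEO4, log2 2.01 ± 0.19 (adjusted p = 1.65e-24). Negative regulators were called in 45 of 98 values (45.9%), 21 higher and 24 lower. In PEA2 7 of 14 were higher and 3 lower, where 23.3% of all genes were higher and 23.8% lower, led by DUSP6, an ERK phosphatase, log2 2.63 ± 0.28 (adjusted p = 9.7e-20), and ERRFI1, an inhibitor of EGFR, log2 2.37 ± 0.21 (adjusted p = 5.3e-27). In PEO4 and PEO6, where EGFR fell, DUSP4, also an ERK phosphatase, fell too, log2 -4.24 ± 0.20 (adjusted p = 7.13e-100) and log2 -6.84 ± 0.35 (adjusted p = 6.37e-84), as did LRIG1, a membrane inhibitor of the receptors, in PEO4, log2 -2.86 ± 0.18 (adjusted p = 8.45e-57). CBLB, a ubiquitin ligase of the receptors, fell in OVCAR3 ResA, log2 -3.07 ± 0.14 (adjusted p = 1.21e-103), and CBLC in OVCAR4 ResB, log2 -2.35 ± 0.36 (adjusted p = 5.64e-09). SPRY4 and DUSP5, feedback inhibitors of ERK signalling, rose in OVCAR3 ResB, log2 2.67 ± 0.43 (adjusted p = 5.99e-08) and log2 1.60 ± 0.35 (adjusted p = 0.0002), and DUSP6 fell in OVCAR4 ResA, log2 -1.44 ± 0.47 (adjusted p = 0.0243). SPRY4 was spread widely in OVCAR3 ResB, at 4.32 ± 3.69 TPM (SD, n = 3) against 0.520 ± 0.112 TPM in OVCAR3.

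Genes that respond to ERK were called in 29 of 56 values (51.8%, against 29.8% of all genes), 20 higher and 9 lower. PHLDA1 was called higher in 5 of the 7 pairs. They were both OVCAR3 Res lines, log2 4.73 ± 0.21 (adjusted p = 2.83e-104) and log2 3.41 ± 0.43 (adjusted p = 6.14e-13), both OVCAR4 Res lines, log2 1.63 ± 0.48 (adjusted p = 0.0112) and log2 1.38 ± 0.45 (adjusted p = 0.0155), and PEO4, log2 1.67 ± 0.17 (adjusted p = 1.3e-20), where EGFR and TGFA were called lower. PHLDA1 was not called higher in PEA2 or PEO6. At the line level it was not called, at log2 1.627 ± 0.595 (adjusted p = 0.403, DESeq2). EGR1, an immediate early gene, was higher in OVCAR4 ResA, log2 1.15 ± 0.39 (adjusted p = 0.032). In the DESeq2 line-level test of all resistant against all sensitive lines EGR1 was also called higher, log2 1.136 ± 0.235 (adjusted p = 0.00222). That test called 0.286% of all genes, and no other listed pathway gene. The line-level test of edgeR called 0 genes. EGR1 was spread widely within some lines, from 25.6 to 122.5 TPM in PEO1 and from 83.62 to 395.3 TPM in PEO4. CCND1, the gene of cyclin D1, and ETV5, an ETS transcription factor, were lower in OVCAR4 ResB, log2 -3.06 ± 0.32 (adjusted p = 5.78e-20) and log2 -2.15 ± 0.41 (adjusted p = 5.07e-06). In PEO6, where EGFR, AREG and TGFA fell, FOSL1, a subunit of AP-1, was 55.1-fold lower, log2 -5.78 ± 0.31 (adjusted p = 4.41e-74), and IER3 was 10.5-fold higher, log2 3.39 ± 0.39 (adjusted p = 1.65e-16). FOSL1 was at 2.38 ± 1.60 TPM (SD, n = 3) in PEO6 and 134 ± 100 TPM in PEO1. Its libraries thus differed widely within each line, and the exact fold is uncertain. The ERK target genes had 5 of 8 members higher and none lower in OVCAR3 ResA, with a median of 0.95, against 22% and 22.9% of all genes. In PEO6 they had 2 higher and 4 lower, with a median of -0.69, against 21.2% and 20.3% of all genes.

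Over the 11 line means of log2(TPM + 1), the genes whose pattern was most like that of ERBB3 were PRRG4 (Pearson r = 0.97), RAB25 (0.97) and TM7SF2 (0.97). For ERBB4 they were APOA1 (0.90), FOLR1 (0.88) and RBM4B (0.84), for EGFR POFUT1, CPNE2 and GALNT10 (each 0.93), and for ERBB2 UBP1, CNNM4 and KBTBD8 (0.93 to 0.95). Among the ligands, AREG was most like ARL14 (0.96), BMPER (0.96) and AGR2 (0.95), EREG like TM4SF19 (0.97), LUCAT1 (0.96) and AOX1 (0.95), and HBEGF like TPGS2 (0.95), ARHGAP17 (0.94) and NAP1L4 (0.94). The nearest to TGFA were PTPRK, STK39 and RALB (0.91 to 0.94), to BTC CTTNBP2, FAM220A and RIC8A (0.89 to 0.90), and to NRG1 PNMAL1, SEC11A and SLC25A37 (0.93 to 0.96). These are the highest of 12607 genes over 11 points that share families, and are given as a description.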

How the data were processed

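Messenger RNA of 11 HGSOC lines was sequenced in 3 libraries per line. Per the study's methods, libraries were pooled and the pool was sequenced in several runs, and reads were aligned to GRCh38 and quantified per gene with salmon in the nf-core RNA-seq pipeline; strand use and annotation release are not given in the sources used here. Estimated counts, as deposited, were not normalised, and 88.4% were whole numbers. The TPM deposited by the authors are scaled for transcript length and to a fixed sum, so they carry no depth.

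Estimated counts were rounded. Each pair of lines (6 libraries) was compared with the Wald test of DESeq2 1.42.0 in R 4.3.3 with the replicate number as a block, as in the study, with no filter; genes with a Benjamini-Hochberg adjusted p under 0.05 were called. Line-level tests used counts summed per line with family as a covariate. A line with 3 counts or fewer in every library was set to that floor, and its fold is given as "at least". Alternatives used edgeR 4.0.16 (quasi-likelihood), limma 3.58.1 on log2(TPM + 1) and log2(TPM + 0.1), TMM size factors, a filter of 10 counts in 3 libraries, one fit of all 33 libraries, no block, and each replicate or family left out; the mitochondrial rRNA covariate and the line-level difference between kinds of family were added after seeing the data. The fits were tested on simulated data.

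The members and gene lists were chosen with earlier results of these data known. Named beside the members were, per pair, the 3 list genes with the largest change among the called genes whose normalised counts averaged 100 or more, further ligands with a line mean of at least 1 TPM, the 3 nearest protein-coding genes on either side of each receptor and of the AREG cluster, and the 3 genes most like each member. ADAM17 and RHBDF1 were named after their values were seen. The PHLDA1 values of OVCAR4 ResB and PEO4 are given outside the rule of the largest changes per pair. Neighbours of ERBB2 and EGFR were examined and are not given, and those of the other genes are given for some comparisons only. To check pairing, each library's deviation from its line mean was correlated with that of the same-numbered library of the other line. In OVCAR4 ResB against OVCAR4 ResA the correlations were 0.784, 0.62 and 0.632, and for OVCAR3 ResA and its parent 0.759, 0.351 and 0.582, each over 0.1; the other 8 comparisons had at least 1 that was not. Sequences are from RefSeq, GRCh38.p14.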

Additional observations from a re-analysis of the deposited data

Results flagged for a closer look

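The members that differed between the resistant lines of 1 family were singled out because resistant lines with the same sensitive control did not change alike, by a direct DESeq2 test between the resistant lines. In the OVCAR3 family the log2 difference of ResB minus ResA was 4.57 for ERBB4, -1.21 for TGFA and -1.34 for NRG1. The call was kept in 9 of 10 alternatives for ERBB4, but in 6 of 12 for TGFA and 7 of 12 for NRG1. In the OVCAR4 family the log2 difference of ResB minus ResA was -0.80 for EGFR, 0.48 for ERBB2, 0.32 for ERBB3, -4.39 for ERBB4, -1.11 for TGFA and -0.79 for NRG1. Of 12 alternatives, ERBB4 kept its call in 12, TGFA in 11, EGFR and ERBB2 in 10 each, NRG1 in 7 and ERBB3 in 4. EGFR was not called without the replicate block (adjusted p = 0.53, DESeq2). EREG was also lower there, with a fitted log2 difference of -4.41 (adjusted p = 0.0456) that rests on 0 to 2 counts in ResB and 6 to 13 in ResA, at least 3.25-fold over the floor. In the PEO family the log2 difference of PEO6 minus PEO4 was 2.32 for ERBB4, -2.31 for AREG, -6.90 for EREG and -3.00 for TGFA.

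ERBB4 also differed between kinds of family, by 10.86 on the log2 scale between the resistant minus sensitive change in the PEA and PEO families and that in the OVCAR families. The test was chosen after the values had been seen, on the same data, and counted PEO4 and PEO6 as separate lines.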

How the results depend on the processing

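Of 1268 member values recomputed under alternatives, 1159 kept their side of the threshold, 71 lost the call, 34 gained one and 4 reversed with a call. A further 19 had no adjusted p. Among those that kept their side, 73 changed sign with no call either way. The reversed values were EGFR in PEA2 (-1.34), ERBB2 in PEO4 (0.49) and AREG in PEO4 (-1.05), all with the mitochondrial rRNA share as covariate, and ERBB4 at the line level in the PEA and PEO families alone (8.68).

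Counts of members called moved as follows. Without the replicate block, 4 were called in OVCAR3 ResB and 3 in OVCAR4 ResB against ResA. Of all genes 1763 and 2094 were then called, against 1255 and 5218 with the block. All same-numbered libraries deviated together, by correlations over 0.1, only in OVCAR3 ResA against OVCAR3 and in OVCAR4 ResB against ResA. The labels do not say whether replicates were prepared as pairs, and the cause of these correlations was not tested. With edgeR, OVCAR4 ResA had 0, where 531 of all genes were called against 1784 with DESeq2 and the block. Limma on log2(TPM + 1), log2(TPM + 0.1) and log2(TPM + 1) without a filter gave 0, 0 and 0 in OVCAR4 ResA, 1, 1 and 0 in OVCAR4 ResB, and 0, 0 and 0 in OVCAR3 ResB against ResA, where the filter of the first 2 left ERBB4 untested and it was tested, and not called, in the last alone. Limma with 0.1 gave 1 in OVCAR3 ResB, and without a filter 0 in OVCAR3 ResB, 3 in OVCAR4 ResB against ResA and 2 in PEO6 against PEO4. Limma without a filter called few genes of any kind in several comparisons. It called 0 of 21098 in OVCAR4 ResA, 0 of 20822 in OVCAR4 ResB, 2 of 21860 in OVCAR3 ResB and 6 of 21801 in OVCAR3 ResB against ResA. One fit of all 33 libraries gave 5 in OVCAR3 ResB against ResA and 4 in OVCAR4 ResB against ResA. Of all genes it called 5042 and 2939, against 2202 and 5218 in the separate fits. The mitochondrial covariate gave 6 in OVCAR3 ResB, 5 in OVCAR4 ResB and 5 in OVCAR3 ResB against ResA. All genes moved the same way there. With the covariate 3407, 6513 and 5581 genes were called in these comparisons, against 1255, 2853 and 2202 with the block. With 1 replicate left out the counts ran from 0 to 3 in OVCAR4 ResA, 2 to 4 in OVCAR4 ResB, 1 to 4 in OVCAR3 ResB against ResA and 3 to 5 in OVCAR4 ResB against ResA. The numbers of all genes called then ran from 292 to 6221, 631 to 7241, 791 to 3724 and 1847 to 4308. At the line level 1 member was called without the OVCAR3 family and 1 in the PEA and PEO families alone, where 96 and 309 of all genes were called. The cause of these shifts was not tested. With 3 libraries per line and uneven mitochondrial shares, small changes rest on few libraries.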
